A study of Homo sapiens with 8 samples.

Results

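Segmentally duplicated gene families are sets of genes that lie in large blocks of the genome copied in recent primate evolution, so that their copies are nearly identical in sequence. The members here were found by gene name in the authors' deposited table, with antisense names left out, and comprised 93 of its 4626 windows, under 56 of its 3114 gene names. The names belong to 14 of the 31 families looked for. A window is a stretch of transcript, 50 nt for 85 of the members, with 1 log ratio and 1 p-value from the authors' comparison of N6-methyladenosine (m6A) between treatments.

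The data come from methylated RNA immunoprecipitation sequencing of HL-60, an established human promyelocytic leukaemia line, labelled wild type. One arm received decitabine, a cytidine analogue that depletes DNA methyltransferases, at 100 nM, added at the start and again after 24 and 48 hours, and the other received the vehicle DMSO. RNA was taken from both arms at 72 hours. Each arm has 2 immunoprecipitated and 2 input libraries, from wells described as duplicates, and the values of single libraries, their depth and their replicate spread are not part of the table, so no error can be given for a ratio.

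All ratios and p-values below are those of the authors' deposited table. No label says which treatment a positive ratio favours, and higher in decitabine is the likely reading, because the table is named for decitabine. The log base is not stated either and was read as natural from the values. A fold is the exponential of the absolute log ratio. The p-values are not marked as adjusted, and only windows with an absolute log ratio of at least 0.501 and a p-value of at most 0.00455 were listed, so a gene absent from the table may have been unchanged, low or never tested. Nothing given states whether the input libraries were used to correct a ratio for the RNA level, so a ratio can hold a change in RNA as well as in m6A.

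m6A is written on messenger RNA by the METTL3 and METTL14 methyltransferase, mostly near stop codons and in the 3′ untranslated region, and it influences the splicing, translation and decay of the transcript. Copies of a duplicated family can carry the same methylated sequence, and a short read from such a stretch fits several copies equally well. Reads here were 50 bases long, and no source used here says where a read that fits several places was counted. The values of nearly identical copies are therefore uncertain as values of each copy, and the part of shared reads in the results was not tested.

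The sequences at hand are promoters, 300-base windows of the RefSeq table for GRCh38.p14, of which 27 of the 56 member names have at least 1. They lie mostly before the transcript and do not show how alike the copies are at the m6A windows. Of 30 pairs of copies with promoters, 9 shared an identical run of 50 bases or more, the length of a read, and 21 did not. Where a name has several promoters, the windows with the longest shared run stand for the pair. RGPD5, RGPD6 and RGPD8 are printed because their m6A windows at one position had nearly equal ratios, and capitals mark the 65-base run that all 3 share. They lie at chr2:109794055-109794354 on the plus strand, chr2:110577173-110577472 on the minus strand and chr2:112433596-112433895 on the minus strand. The printed RGPD5 and RGPD6 promoters shared a run of 263 bases, and the other promoter pairings of these genes a run of 16 bases at most.
RGPD5: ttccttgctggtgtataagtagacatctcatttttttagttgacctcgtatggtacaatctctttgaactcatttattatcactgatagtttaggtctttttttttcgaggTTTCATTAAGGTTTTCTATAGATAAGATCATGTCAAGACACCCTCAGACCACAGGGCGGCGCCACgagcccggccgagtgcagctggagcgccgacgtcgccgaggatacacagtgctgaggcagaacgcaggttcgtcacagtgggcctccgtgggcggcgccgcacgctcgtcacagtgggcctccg
RGPD6: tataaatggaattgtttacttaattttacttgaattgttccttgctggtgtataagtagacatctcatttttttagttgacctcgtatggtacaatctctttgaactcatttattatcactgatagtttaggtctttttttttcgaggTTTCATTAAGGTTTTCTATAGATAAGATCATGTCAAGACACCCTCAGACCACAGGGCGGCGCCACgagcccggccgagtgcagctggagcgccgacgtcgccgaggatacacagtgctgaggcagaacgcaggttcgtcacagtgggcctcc
RGPD8: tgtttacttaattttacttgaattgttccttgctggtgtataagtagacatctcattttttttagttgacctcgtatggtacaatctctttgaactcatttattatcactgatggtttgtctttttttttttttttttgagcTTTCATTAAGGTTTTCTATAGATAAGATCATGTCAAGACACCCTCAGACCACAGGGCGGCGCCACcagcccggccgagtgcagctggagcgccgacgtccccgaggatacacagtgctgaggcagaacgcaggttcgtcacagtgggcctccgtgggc

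AGAP5 and AGAP6 are printed because the authors' deposited table gives their m6A windows ratios that round to one value. Their promoters, at chr10:73698060-73698359 on the minus strand and chr10:49988118-49988417 on the plus strand, differed at 5 of 300 bases, marked by capitals. The LRRC37A promoter was identical over all 300 bases to the LRRC37A2 promoter that begins at 46512460, and shared a run of 58 bases with another. The promoters of SRGAP2 and SRGAP2C shared a run of 110 bases. The sequence under the m6A windows themselves was not used here.
AGAP5: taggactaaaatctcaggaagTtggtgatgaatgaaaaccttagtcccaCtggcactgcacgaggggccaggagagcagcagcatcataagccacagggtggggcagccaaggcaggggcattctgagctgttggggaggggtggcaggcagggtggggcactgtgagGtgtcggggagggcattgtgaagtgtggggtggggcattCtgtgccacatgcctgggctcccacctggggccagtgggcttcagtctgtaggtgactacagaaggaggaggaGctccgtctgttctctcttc
AGAP6: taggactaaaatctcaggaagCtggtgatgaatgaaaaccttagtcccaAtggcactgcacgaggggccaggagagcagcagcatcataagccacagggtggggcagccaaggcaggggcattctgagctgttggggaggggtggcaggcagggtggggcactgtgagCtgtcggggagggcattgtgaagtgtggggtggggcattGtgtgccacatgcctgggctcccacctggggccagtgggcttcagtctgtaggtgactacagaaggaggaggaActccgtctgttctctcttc

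Members were listed with both signs, in shares close to those of the table as a whole. The authors' deposited table gave 54 of the member windows a positive and 39 a negative ratio, so 58.1% were positive (95% Wilson interval 47.9 to 67.6, which covers the counting of windows only), beside 56.3% of all listed windows. The median log ratio was 0.84 for the members and 0.78 for all listed windows. A ratio of at least 10-fold was listed for 46 of the 93 member windows (49.5%), beside 38.5% of all listed windows in the authors' deposited table. Of these, 34 were positive and 12 negative, and over all listed windows of the authors' deposited table such ratios made up 28.2% as positive and 10.3% as negative windows. The median positive member stood at 30.5-fold (quartiles 4.47 and 131), beside 10.1-fold for all positive windows, and the median negative member at 4.52-fold (quartiles 2.83 and 22.7), beside 3.95-fold.

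Many of the large ratios are exact multiples of 0.5 as folds, called stepped here, the form a ratio has when a whole number is divided by 1 or 2. Stepped ratios were 38 of the member windows (40.9%), 31 positive and 7 negative, beside 30.6% of all listed windows in the authors' deposited table. Without them 23 members were positive and 32 negative (41.8% positive), beside 45.3% of the corresponding windows of the table. The median log ratio of those 55 members was -0.73 and not 0.84, and 9 of them, not 46, were of 10-fold or more in the authors' deposited table. Some of the large ratios that stayed are simple fractions too, such as 29.25-fold in NBPF26, 87.75-fold in RGPD2 and 26.67-fold in RGPD8. The removal therefore does not take out every ratio of this kind. The majority of positive members thus rests on stepped ratios, whose counts are not shown in the table. The RGPD family supplied 20 of the windows, and without it 36 of 73 windows were positive (49.3%) and 32 were of 10-fold or more (43.8%).

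**Figure D1:**
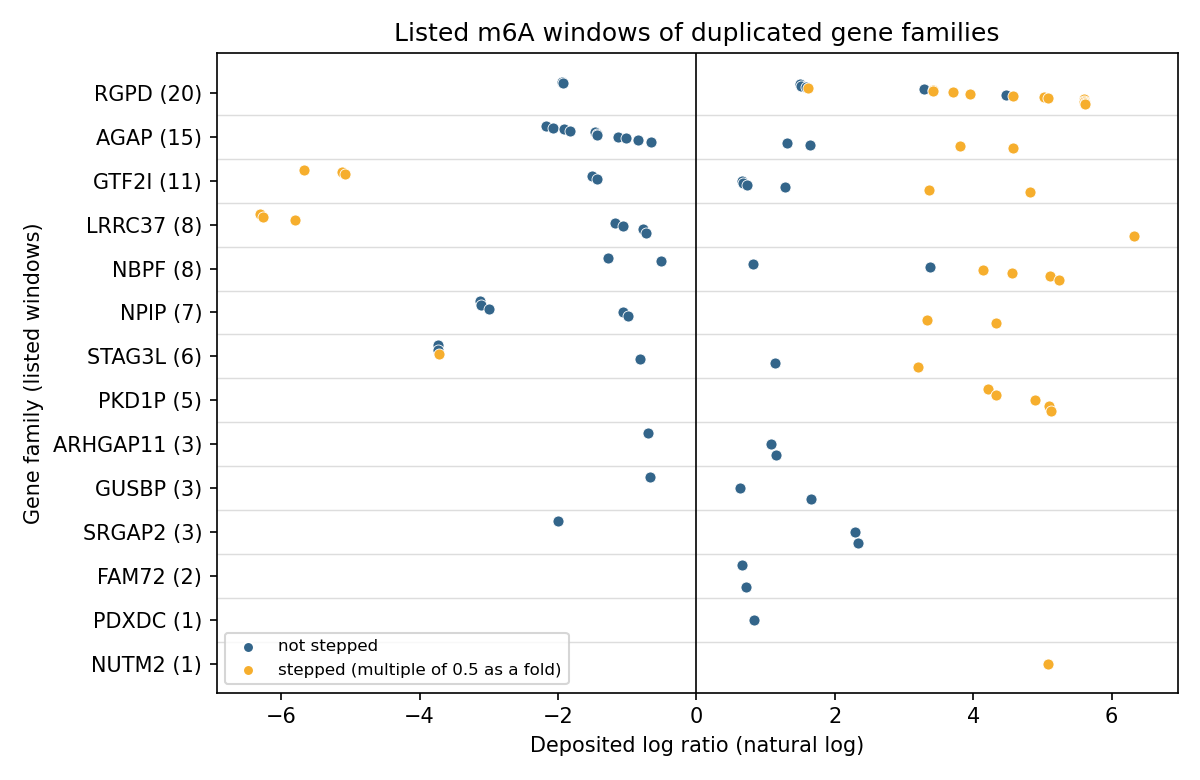
Deposited log ratio (natural log, horizontal axis) of each of the 93 member windows, by gene family with the number of listed windows in brackets, blue for ordinary and yellow for stepped ratios. RGPD has 18 of 20 windows on the positive side and PKD1P all 5, while LRRC37 has 7 of 8 and AGAP 11 of 15 on the negative side.

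The RGPD genes encode proteins related to RANBP2, a nuclear pore component that binds the GTPase Ran, and lie on chromosome 2. The authors' deposited table lists 7 of the 8 RGPD names of RefSeq, with 18 positive and 2 negative windows, 13 of them stepped. RGPD3, RGPD4, RGPD5, RGPD6 and RGPD8 each had a window at almost one distance from the 3′ end of the gene, between 20285 and 20333 nt. By the authors' deposited table these stood at 276-fold in RGPD3 (chromosome 2, 106423698 to 106423747, minus strand, p = 3.3e-08), 272-fold in RGPD4 (107872210 to 107872259, plus strand, p = 3.0e-08), 273-fold in RGPD5 (109837323 to 109837372, plus strand, p = 3.6e-08), 273-fold in RGPD6 (110534129 to 110534178, minus strand, p = 3.4e-08) and 274-fold in RGPD8 (112388674 to 112388723, minus strand, p = 4.0e-08). All were positive and stepped, and the ratios of the 5 copies differ by 4 fold units at most between the lowest and the highest.

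The windows further upstream separated the RGPD copies. RGPD5 and RGPD6 shared a 30.5-fold window with the same p-value to all deposited digits (p = 9.4e-08), and RGPD8 had a 41-fold window at the matching distance in the authors' deposited table (p = 6.2e-08). RGPD3 and RGPD4 had positive windows 21491 and 21479 nt from the 3′ end, of only 4.53-fold and 4.45-fold by the authors' deposited table (p = 0.00074 and 0.0014), which were not stepped. At 21482 and 21474 nt the authors' deposited table gives RGPD5 97-fold, the smallest p-value of any member (p = 3.1e-11), and RGPD6 153-fold (p = 3.5e-08), both positive, stepped and 100 nt wide. RGPD8 had 26.7-fold slightly nearer the 3′ end, at 21400 nt, and a further window of 162-fold at 20106 nt in the authors' deposited table. Between 21474 and 21491 nt, RGPD3 and RGPD4 thus had nearly equal ratios (1.02-fold apart), while RGPD5 and RGPD6 were 1.58-fold apart. The ratios of RGPD3 and RGPD4 there were 21.4-fold to 34.4-fold below those of RGPD5 and RGPD6.

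RGPD1 and RGPD2 had windows at other distances from the 3′ end, and were the RGPD copies with negative windows. In the authors' deposited table RGPD1 had a positive 5-fold window (86986365 to 86986414, p = 0.0037) and, 100 nt further, a negative window of 6.85-fold (86986515 to 86986564, p = 0.00088). RGPD2 had a positive window of 4.87-fold (87783514 to 87783563, p = 0.0044) and, with 99 nt between, a negative one of 6.98-fold (87783365 to 87783414, p = 0.00070) by the authors' deposited table. The order of the signs along the transcript and the sizes were alike in both copies. Their remaining windows, of 52.5-fold in RGPD1 and 87.8-fold in RGPD2, were both positive but lay at different distances from the 3′ end, 26218 and 26807 nt. Gaps between windows nevertheless recurred in other copies. A gap of 1144 nt separated the negative and 52.5-fold windows of RGPD1, and also the 4.45-fold and 272-fold windows of RGPD4. A gap of 548 nt separated the negative and 87.8-fold windows of RGPD2, and also the 153-fold and 30.5-fold windows of RGPD6. Windows at like places in these copies could therefore lie at different distances from the span ends, which was not tested. RANBP2, which is not a member, had 2 negative windows of 6.81-fold and 4.92-fold and a positive one of 2.63-fold in the authors' deposited table (p = 0.0045, 2.1e-05 and 0.00020).

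**Figure D2:**
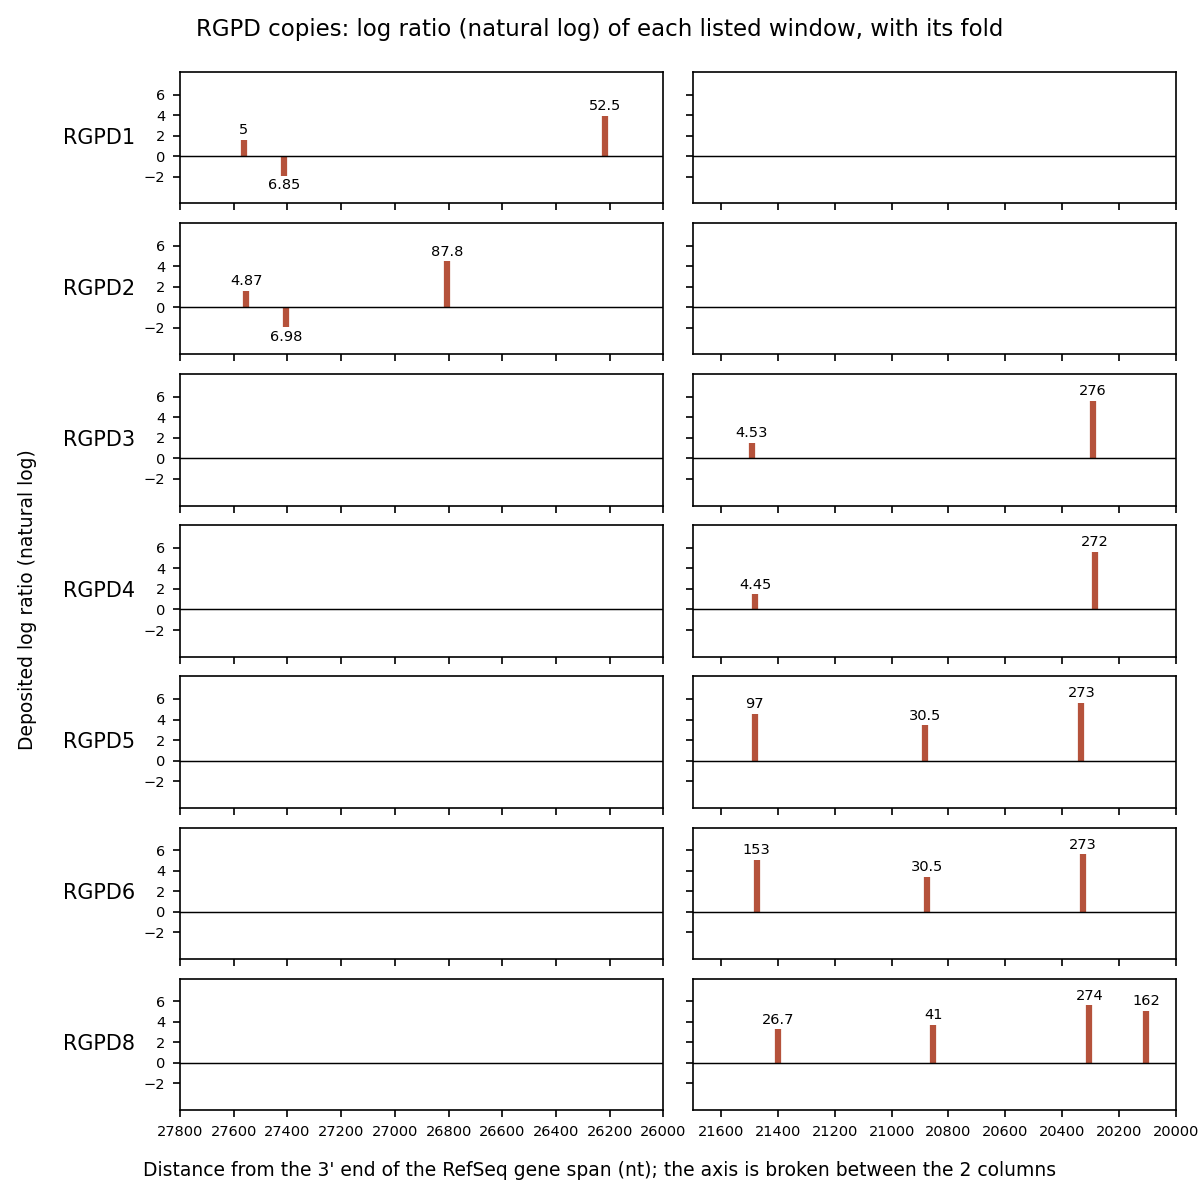
Deposited log ratio (natural log, vertical axis) of every listed window of the 7 RGPD copies against the distance from the 3′ end of the RefSeq gene span in nt, with the fold written at each bar and the axis broken between the columns. RGPD3, RGPD4, RGPD5, RGPD6 and RGPD8 share a bar of 272-fold to 276-fold between 20285 and 20333 nt, and RGPD1 and RGPD2 share a positive and a negative bar between 27405 and 27562 nt. Like places in different copies can lie at different distances if their RefSeq spans end differently.

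The PKD1P genes are pseudogene copies of the first part of PKD1, the gene of polycystin-1, on the short arm of chromosome 16. All 5 of their windows were positive and stepped. In the authors' deposited table PKD1P1 stood at 163-fold (chromosome 16, 16317464 to 16317513, p = 2.6e-06), PKD1P6 at 169-fold (15137122 to 15137171, p = 2.5e-06) and PKD1P5 at 133-fold (18394615 to 18394664, p = 0.0018). PKD1 itself, chosen for comparison after its values were seen, had a positive 166-fold window in the authors' deposited table (2118052 to 2118101, p = 2.5e-06), between those of PKD1P1 and PKD1P6. The windows of PKD1P6 and PKD1 lay 17702 and 17797 nt from the 5′ ends of their spans. PKD1 also had positive windows of 4.10-fold and 3.55-fold, neither of them stepped and neither near a listed ratio of a PKD1P copy.

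A second PKD1P window had a ratio like that of a window listed under a name of another family. PKD1P1 was at 68-fold (16322376 to 16322425, p = 1.7e-06) and PKD1P5 at 76.5-fold (18389515 to 18389743, in 2 blocks, p = 3.9e-07) in the authors' deposited table. NPIPA1, a nuclear pore complex interacting protein gene that often adjoins PKD1 copies, had 76.5-fold as well (14923755 to 14923994, in 2 blocks, p = 5.5e-07) in the authors' deposited table. That window lies before the RefSeq start of NPIPA1, and the clone-named gene AC138932.1 has 75.5-fold over nearly the same bases in the authors' deposited table (p = 4.7e-07). AC138932.1 also had positive log ratios of 5.08 (14918829 to 14918878) and 6.45 (14927213 to 14927262) there. Whether the window belongs to NPIPA1 was not tested. The ratios listed under PKD1P1, PKD1P5 and NPIPA1 thus describe windows of like value at 3 places on chromosome 16.

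The other NPIP copies were mixed in sign. The authors' deposited table gave NPIPB4 and NPIPB5 negative windows of 22.6-fold and 22.8-fold at 934 and 960 nt from the 3′ end (p = 0.0017 and 0.0019), and gave NPIPB13 a negative window of 20.2-fold at 1328 nt (p = 0.0013). NPIPB4 also had a negative 2.68-fold window, and NPIPA7 a negative one of 2.88-fold, 356 nt from its 3′ end, in the authors' deposited table. NPIPB6 alone of the B-type copies listed was positive, at 28-fold and stepped (28342754 to 28342803, p = 0.0033 by the authors' deposited table). PDXDC1, a decarboxylase-domain gene of the same chromosome arm, had a single positive 2.31-fold window in the authors' deposited table (p = 0.00034).

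AGAP genes encode ArfGAP proteins with GTPase, ankyrin and pleckstrin homology domains, which act on the small GTPases of membrane traffic, and most listed copies lie on chromosome 10. Of the 9 listed names, 5 had a negative window at nearly one distance from the 3′ end. The ratios there in the authors' deposited table were 4.18-fold in AGAP5 (73675323 to 73675372, minus strand, p = 0.0012), 4.18-fold in AGAP6 (50009413 to 50009462, plus strand, p = 0.0015), 6.77-fold in AGAP7P (46130573 to 46130622, plus strand, p = 0.00018), 8.75-fold in AGAP4 (45826636 to 45826685, minus strand, p = 2.2e-05) and 7.90-fold in AGAP11 (87009134 to 87009183, plus strand, p = 7.6e-06). The distances from the 3′ end ran from 1028 nt in AGAP5 to 1056 nt in AGAP7P, and none of the 5 ratios was stepped. AGAP5 and AGAP6 agreed in the ratio to the digits printed here but not in the p-value.

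Other AGAP windows did not follow one sign. AGAP12P, a pseudogene, had negative windows of 3.12-fold, 4.33-fold and 2.78-fold and a positive one of 3.70-fold in the authors' deposited table (p = 0.00024, 0.0014, 0.0043 and 0.0036). AGAP4 had a further negative window of 1.92-fold and a positive one of 5.16-fold nearer its 3′ end by the authors' deposited table (p = 0.0035 and 5.7e-05). AGAP11 had a positive stepped 45-fold window 149 nt before its negative one in the authors' deposited table (p = 7.0e-05). AGAP10P was negative at 6.19-fold (p = 0.00016) and AGAP14P positive at a stepped 97-fold (p = 0.0032) in the authors' deposited table, both past the RefSeq 3′ end. AGAP3, an unduplicated relative on chromosome 7 that the name rule also takes, was negative at 2.32-fold in the authors' deposited table (p = 0.0015).

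The GTF2I family surrounds GTF2I, the gene of the transcription factor TFII-I, whose copies flank the Williams-Beuren region of chromosome 7. By the authors' deposited table GTF2I, GTF2IP1 and GTF2IP4 shared a small positive window 946, 946 and 952 nt from the 3′ end, of 2.07-fold (74759697 to 74759746, p = 0.00036), 1.93-fold (75186329 to 75186378, p = 0.00068) and 1.96-fold (73206295 to 73206344, p = 0.00060). The ratios of the coding gene and both pseudogenes were close to each other and not stepped. GTF2IP4 had in addition a negative 4.52-fold window 49 nt further, which was not listed for the other 2 copies in the authors' deposited table (p = 4.4e-05).

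The remaining GTF2I pseudogenes, GTF2IP12, GTF2IP13 and GTF2IP20, had windows of either sign, and 5 of their 7 windows were stepped. GTF2IP13 and GTF2IP20 were negative at 161-fold and 168-fold near the 5′ ends of their spans in the authors' deposited table (p = 0.0041 and 0.0039), at 217 and 300 nt. GTF2IP13 also had windows past its RefSeq 3′ end, a negative one of 289-fold and positive ones of 29-fold, 124-fold and 3.59-fold by the authors' deposited table (p = 4.0e-05, 1.1e-05, 0.0021 and 0.0023). GTF2IP12 on chromosome 4 was negative at 4.21-fold, outside the RefSeq span, in the authors' deposited table (p = 0.0018).

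**Figure D3:**
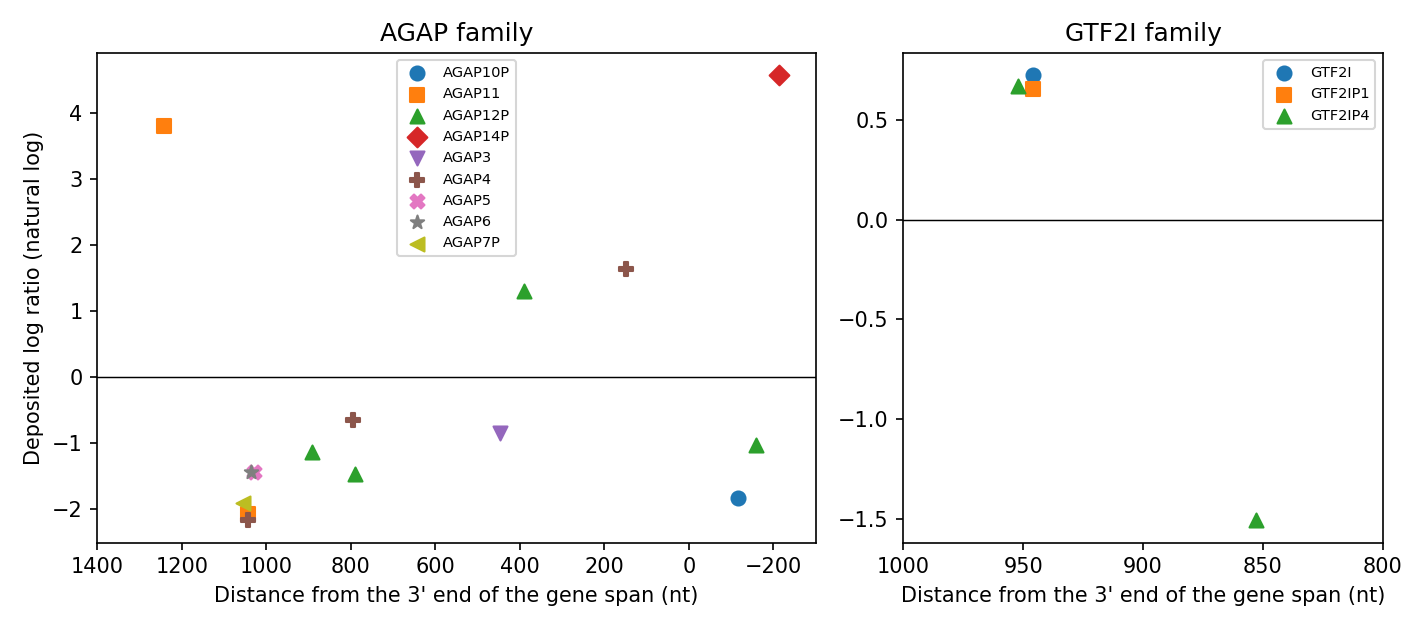
Deposited log ratio (natural log, vertical axis) against the distance from the 3′ end of the RefSeq gene span in nt (below 0 past the end), for AGAP windows on the left and for GTF2I, GTF2IP1 and GTF2IP4 on the right, 1 marker per copy. AGAP4, AGAP5, AGAP6, AGAP7P and AGAP11 cluster on the negative side between 1028 and 1056 nt, and the GTF2I copies on the positive side at 946 to 952 nt.

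The STAG3L genes are partial copies of STAG3, a cohesin subunit of meiosis, on chromosome 7. STAG3L1 and STAG3L2 had negative windows with one ratio and one p-value to all deposited digits, 41.7-fold (p = 0.0033), and STAG3L3 had a like 41-fold (p = 0.0030), all by the authors' deposited table. They lay 1058, 1044 and 1063 nt from the 3′ ends, and those of STAG3L1 and STAG3L3 spanned 2 blocks. Apart from the pseudoautosomal copies on chromosome Y, only 4 windows that were not stepped shared ratio and p-value with another, those of STAG3L1 and STAG3L2 and those of ZBED6 and ZC3H11A, which lie at overlapping positions. STAG3L1 also had a negative 2.27-fold window past its RefSeq end by the authors' deposited table (p = 0.00021). The readthrough gene STAG3L5P-PVRIG2P-PILRB had positive windows of 24.5-fold and 3.14-fold, and PILRB, a receptor gene that it overlaps, had 25.5-fold and 3.33-fold over the same bases or 1 base away in the authors' deposited table.

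NBPF genes on chromosome 1 encode proteins built of repeated Olduvai domains, and their listed copies ranged from a small negative to large positive ratios. The authors' deposited table gave NBPF20 positive windows of 96-fold (145291100 to 145291149, p = 2.1e-07) and 165-fold (145291400 to 145291449, p = 0.0012), both stepped. NBPF10 was negative at 1.67-fold (146066207 to 146066256, p = 0.0025 by the authors' deposited table), although its window lies 1508 nt from the 3′ end and the second window of NBPF20 1500 nt. NBPF25P was positive at 190-fold, 1561 nt from its end, NBPF8 at 63-fold and NBPF26 at 29.3-fold in the authors' deposited table (p = 0.00095, 9.9e-05 and 0.0042). NBPF19 had a positive 2.26-fold window at 1644 nt and a negative 3.61-fold window at 1345 nt by the authors' deposited table (p = 0.0041 and 0.0035).

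LRRC37 genes, leucine-rich repeat genes of chromosome 17, held the largest ratios of all families. LRRC37A2 had a positive 557-fold window (46515149 to 46515198, p = 2.0e-08) and, 199 nt before it, a negative window of 330-fold (46514900 to 46514949, p = 0.0012), both stepped, in the authors' deposited table. Its other windows were negative at 2.89-fold and at 2.07-fold by the authors' deposited table (p = 0.00074 and 0.0031). The neighbouring LRRC37A and the pseudogene LRRC37A4P were negative at 2.16-fold and 3.24-fold by the authors' deposited table (p = 0.0027 and 0.00062). LRRC37A3 and the pseudogene LRRC37A17P were negative at 545-fold and 526-fold, both stepped, by the authors' deposited table (p = 0.00027 and 0.00029). The LRRC37A17P span overlaps that of LRRC37A2 in RefSeq. The distances from the ends of the RefSeq spans did not match any of the LRRC37 windows to each other. The LRRC37A2 span is long, from 46372792 to 47049128, and its windows lie 499808 to 535718 nt from the 3′ end. Windows at like places in LRRC37A2 and another copy could therefore go unmatched by this measure.

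In the smaller families the ratios were mostly below 10-fold. FAM72A and FAM72B, neighbours of SRGAP2 copies on chromosome 1, were positive at 1.93-fold and 2.05-fold by the authors' deposited table (p = 0.00074 and 0.00095), 16541 and 16519 nt from their 3′ ends. SRGAP2, a GTPase-activating protein gene of neuronal development, was positive at 10.3-fold (206303300 to 206303349, p = 2.0e-05) by the authors' deposited table. Its truncated copy SRGAP2C was positive at 9.92-fold (121187509 to 121284847, in 2 blocks, p = 2.4e-05) by the authors' deposited table. SRGAP2 had in addition a negative 7.43-fold window toward its 3′ end in the authors' deposited table (206454290 to 206454339, p = 4.2e-05).

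ARHGAP11A on chromosome 15 had a positive 3.16-fold and a negative 2.01-fold window (p = 0.0012 and 0.00075), and its human-specific copy ARHGAP11B a positive 2.94-fold window in the authors' deposited table (30626435 to 30626484, p = 0.0010). The ARHGAP11B window lies 307 nt from the 5′ end of its RefSeq span, and those of ARHGAP11A lie 21222 and 21868 nt from theirs. GUSBP1 and GUSBP11, pseudogenes of the beta-glucuronidase gene, were positive at 1.87-fold and 5.27-fold, and GUSBP11 also negative at 1.97-fold, in the authors' deposited table (p = 0.00085, 0.0021 and 0.0033). NUTM2B was positive at a stepped 160-fold (chromosome 10, 79711906 to 79711955, p = 2.6e-05 by the authors' deposited table).

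The copies were then compared by position across families. Windows of 2 copies were matched where their distances from the same end of the RefSeq span agreed to 50 nt, the width of a window, taking the nearest match each way. This gave 47 pairs in 8 families, over 44 windows of 30 gene names, and the rule uses no ratio. In 44 of the 47 matched pairs (93.6%) both windows had one sign in the authors' deposited table, and the median difference between copies was 1.11-fold. In 23 pairs the natural log ratios differed by at most 0.1. Among the 358 other pairs of windows from different copies of a family, 232 had one sign (64.8%), the median difference was 10.3-fold, and 15 were within 0.1. Pairs share windows and may share reads, so these counts are a description and no test was made.

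The 3 matched pairs of opposite sign were NBPF10 with NBPF20, and the positive 3.70-fold window of AGAP12P with the negative windows of AGAP6 and AGAP7P in the authors' deposited table. Both AGAP12P pairs were matched by the 5′ end (21068 nt against 21045 and 21078 nt), and the other AGAP pairs by the 3′ end. From the 3′ end the AGAP12P window lay at 391 nt, and those of AGAP6 and AGAP7P at 1037 and 1056 nt. A further 5 pairs of one sign differed by more than 1 on the log scale, NBPF19 with NBPF26 and the 4 pairings of RGPD3 and RGPD4 with RGPD5 and RGPD6 at 21474 to 21491 nt. RGPD gave 21 of the matched pairs, all of one sign, and without it 88.5% of 26 pairs had one sign. RGPD1 and RGPD2 were matched only to each other, although gaps between their windows recur in RGPD4 and RGPD6. Matching by those gaps would set the negative windows of RGPD1 and RGPD2 against positive ones. The counts of matched pairs of one sign therefore depend on the RefSeq span ends.

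**Figure D4:**
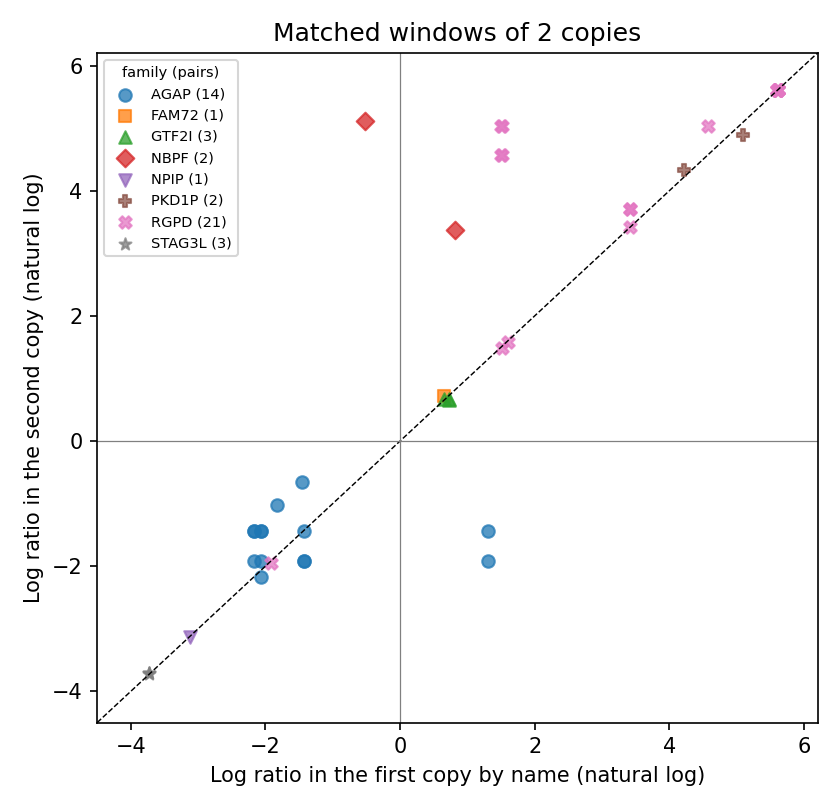
Deposited log ratio (natural log) of the matched windows of 2 copies, the first copy by name on the horizontal and the second on the vertical axis, 1 point per pair, with the dashed line at equality. Of 47 pairs, 44 lie in the quadrants of one sign, and NBPF10 with NBPF20 lies farthest from the line.

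By gene, the sign of the leading window (the smallest p-value) was the same in 84 of 125 pairs of copies (67.2%). All 21 RGPD pairs and all 3 PKD1P pairs agreed in sign, beside 28 of 36 AGAP pairs, 7 of 15 NBPF pairs, 7 of 15 NPIP pairs, 6 of 15 GTF2I pairs and 6 of 10 LRRC37 pairs in the authors' deposited table. Windows of both signs occurred in 10 of the 12 families with more than 1 window, PKD1P and FAM72 being the exceptions. They occurred also within genes. Of 23 names with more than 1 window 12 had both signs, and of 16 pairs of neighbouring windows with at most 500 nt between them 8 were of opposite sign.

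The same bases were listed under a second, non-member name for 11 member windows, in 13 rows with windows shifted by 0 to 29 nt. All 13 had the sign of the member window in the authors' deposited table, with ratios that differed by 1.01-fold to 2-fold (median 1.21). The widest gap was at AGAP11, where the positive 45-fold window was 23-fold under AL136982.1 and 22.5-fold under AL136982.4, with starts 20 and 23 nt away.

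Pseudogenes were listed beside coding copies with no sign of their own. The 34 protein-coding names held 36 positive and 21 negative windows, 22 of them stepped, and the 20 pseudogene names 15 positive and 17 negative windows, 14 of them stepped, in the authors' deposited table. Of 82 member windows inside the RefSeq span of their gene, 34 lay within 2000 nt of its 3′ end (41.5%), beside 30.9% of all listed windows inside a matched span. RefSeq holds 374 names that the name rule takes, 173 of them protein-coding, so most copies were not in the table. The families with no listed window were GOLGA6, GOLGA8, SMG1P, PMS2P, SPDYE, TBC1D3, ANKRD20A, ANKRD36, FRG1, NOTCH2NL, POTE, CROCCP, BOLA2, SULT1A, EIF3C, WASH and CCDC144, with 202 RefSeq names in all.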

How the data were processed

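m6A immunoprecipitate and input libraries of HL-60 cells, 2 of each per treatment, were grouped by their titles. The submitters' processing notes name STAR 2.7.3a and hg38. No source used here names the tool that scored windows. The authors' deposited table holds a log ratio, read as natural log (ln) because 1415 exponentials were multiples of 0.5 (relative tolerance 1e-08) against 0 in base 2, and a p-value per window. It was analysed as the authors deposited the log values and p-values, with no filter.

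Members were taken by gene name. The members, families and alternatives were chosen with earlier results of these data known, and the matching of windows after the table was seen. Every member name is reported. All 56 matched a RefSeq symbol of GRCh38.p14, whose spans gave the distances. The planned comparison of proteins was not made. No test was run, since the table has no replicate values. The matching code was tested on simulated data. Alternatives removed stepped ratios, tightened p to 0.001, or changed the names, unit, tolerance or leading window. Scripts ran in Python 3.11.15 with numpy 2.4.6 and pandas 2.3.3, and figures were drawn with matplotlib 3.10.9.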

Additional observations from a re-analysis of the deposited data

How the results depend on the processing

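Of the alternative values, 28 stayed close to the reported one (within its 95% binomial interval, or for counts within 1.5 times), 11 moved and 1 reversed. The intervals treat windows and pairs as independent, though pairs share windows and may share reads, so these labels only mark the size of a change. Some of the 28 could not differ. No name taken by the rule ended in -AS and digits, so keeping such names repeated every reported value. Leaving out families with 1 listed name could not change the copy pairs or the families with both signs. Removing stepped ratios turned the median log ratio of the members from 0.84 to -0.73, lowered the positive share to 41.8% and the windows of 10-fold or more from 46 to 9, raised the share of copy pairs with leading windows of one sign to 77.6% and left 23 matched pairs, since fewer windows remain. At p of at most 0.001 the positive share was 70.4%, the median 2.76, the share of copy pairs of one sign 86.5%, and 6 families had both signs. With the largest ratio as the leading window, and families judged by leading windows alone, 6 families had both signs. With 1 window per gene name 29 were of 10-fold or more, and without RGPD 26 matched pairs remained. The alternatives on matched windows, and those without RGPD, were chosen after seeing the data. The share of matched pairs of one sign was 91.7% at a tolerance of 25 nt, 88.1% at 100 nt and 91.3% without stepped ratios.

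No paired analysis was possible because the table holds no value per library, and for the same reason leaving out a replicate was not done. The depth behind each ratio is unknown here.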

Other observations

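Relatives were looked up for 3 of the 17 families without a listed window, and PMS2, NOTCH2 and SMG1 were themselves listed. They were chosen here after their values were seen. In the authors' deposited table PMS2, a mismatch repair gene whose pseudogenes form the PMS2P family, had positive windows of 98-fold (chromosome 7, 5972670 to 5972719, stepped, p = 0.0031) and 13.2-fold (p = 0.0043). NOTCH2, the receptor gene from which the NOTCH2NL copies derive, had a positive 1.78-fold and a negative 3.23-fold window in the authors' deposited table (p = 0.0021 and 0.00015). SMG1, the kinase of nonsense-mediated decay, had a positive 2.07-fold window in the authors' deposited table (p = 0.00036). Among relatives of families with listed windows, STAG3, GUSB and NUTM1 had 0 windows in the authors' deposited table.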
